A study of Saccharomyces cerevisiae with 8 samples.

Results

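URA3, LEU2, HIS3, TRP1 and ADE2 are the 5 biosynthetic genes most often used to select for plasmids and gene disruptions in laboratory strains of the budding yeast Saccharomyces cerevisiae. Their transcripts were read by every probe set that the platform annotation pairs with one of these genes, together with the URA3 probe set that the manufacturer placed among its controls. Of the 5656 genes that could be named on the array these are 5, read by 9 of its 9335 probe sets, with 3 for LEU2, 2 each for URA3 and HIS3 and 1 each for TRP1 and ADE2. A probe set is a group of short probes that are summarised into a single value.

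Each of the genes encodes an enzyme of nucleotide or amino acid synthesis, so a cell that lacks a working copy needs uracil, leucine, histidine, tryptophan or adenine from the medium. A working copy carried on a plasmid, or inserted into a gene to disrupt it, restores growth without that nutrient, which is what makes the genes selectable. The laboratory strain W303 is known for mutant alleles of all 5, with nonsense alleles of ADE2 and TRP1 and a frameshifted LEU2. HIS3 is a classic target of the activator Gcn4, LEU2 of Leu3, URA3 of Ppr1 and ADE2 of Bas1, while TRP1 is known as the gene of its pathway that general amino acid control does not raise.

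The study compared 8 cultures of haploid strains that are described as derived from W303a and kept at 25 °C, where the mutant can grow, and harvested early in logarithmic growth. According to the labels every strain had both of its own eIF5A genes disrupted (hyp2 and anb1) and expressed human EIF5A1 from a plasmid. eIF5A is a translation factor that carries the modified amino acid hypusine. In 4 cultures the plasmid held wild-type EIF5A1, with normal growth, and in 4 it held the point mutant V81G, which made the strain temperature sensitive. Replicates are labelled as biological, and the design text describes 4 isogenic strains for each of the groups. Which genes marked the plasmid and the 2 disruptions, and which marker alleles the strains carried, is not stated in the labels. A probe set cannot tell a chromosomal copy of a marker gene from one on a plasmid or in a disrupted locus.

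The native genes did not match their description in full. HYP2 (YEL034W) read 15.42 ± 0.01 (SD, n = 4) on the log2 intensity scale in the arrays labelled wild type, near the table's maximum of 15.43, and 12.02 ± 0.23 (n = 4) in those labelled V81G. ANB1 (YJR047C) read 14.04 ± 0.13 and 14.18 ± 0.20. Groups are therefore called by their labels. The mating-type markers were mixed and did not settle whether the strains had the a mating type that the parent strain's name implies. Of the 4 markers of alpha cells 3 had means above 10.17, the median of all probe sets, in both groups, and so had 2 of the 6 markers of a cells, the a-factor genes MFA1 and MFA2. In the arrays labelled wild type, 4 a markers and 1 alpha marker had means under 9.03, the 25th percentile of mean levels over all probe sets. In those labelled V81G the numbers were 2 and 0. MF(ALPHA)1, the alpha-factor precursor gene, read 13.86 ± 0.66 in the arrays labelled V81G and 14.47 ± 0.41 in those labelled wild type, while STE2, the receptor gene of a cells, read 9.26 ± 0.12 and 8.11 ± 0.16. MFA2 read 11.71 ± 0.05 and 11.40 ± 0.50 and MFA1 10.47 ± 0.12 and 10.42 ± 0.36 in its brighter probe set. The dimmer probe set of MFA1 read 10.09 ± 0.66 and 9.27 ± 0.07. It differed by 0.82 ± 0.28 without passing (limma, adjusted p = 0.073). The second alpha-factor gene, MF(ALPHA)2, read 9.16 ± 0.77 and 8.80 ± 0.31. The other alpha markers were brighter than the median in both groups. STE3 read 11.47 ± 0.32 and 11.21 ± 0.31, and SAG1, the alpha-agglutinin gene, read 13.17 ± 0.11 and 11.40 ± 0.16. The a markers BAR1, at 8.81 ± 0.19 and 8.58 ± 0.20, and ASG7, at 8.73 ± 0.23 and 8.62 ± 0.28, lay under 9.03 in all 8 arrays. The a marker STE6 ranged from 8.81 to 9.91. Levels of different probe sets are not on a shared scale, so no list's level is set against the other's. Between the groups, summed intensities of the alpha list were 22097 to 37335 in the arrays labelled V81G and 22380 to 36410 in those labelled wild type. The sums of the a list were 6617 to 7518 and 3968 to 6910, and no marker was listed at 0. SAG1 and STE2 were higher in the arrays labelled V81G, by 1.77 ± 0.13 and 1.14 ± 0.13. The part of such differences in the results below was not tested.

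Of the 9 marker probe sets, 7 passed the test between the groups, 6 of them lower and 1 higher in the arrays labelled V81G. The test was limma's, with Benjamini-Hochberg adjusted p under 0.05 over 9276 probe sets, of which 17.6% passed in all, 8.61% as falls and 8.97% as rises. The falls belonged to URA3, LEU2 and the dimmer probe set of HIS3, and the rise to ADE2. TRP1 and the brighter probe set of HIS3 did not pass. Probe sets of one gene are repeat readings and not separate members. Counted as genes with at least 1 probe set that passed, 3 of the 5 fell, 1 rose and 1 did not pass. HIS3 is among these falls only through its dimmer probe set. Of the 5656 named genes, each read by its brightest probe set alone, 21.6% passed. In 7 probe sets the 4 arrays of one group lay wholly above those of the other, which held for 22.7% of all probe sets. Differences below are V81G minus wild type on the log2 scale, with the standard error (SE) of the fit. In bulk RNA, fewer cells with a transcript and less of it per cell cannot be told apart.

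**Figure D1:**
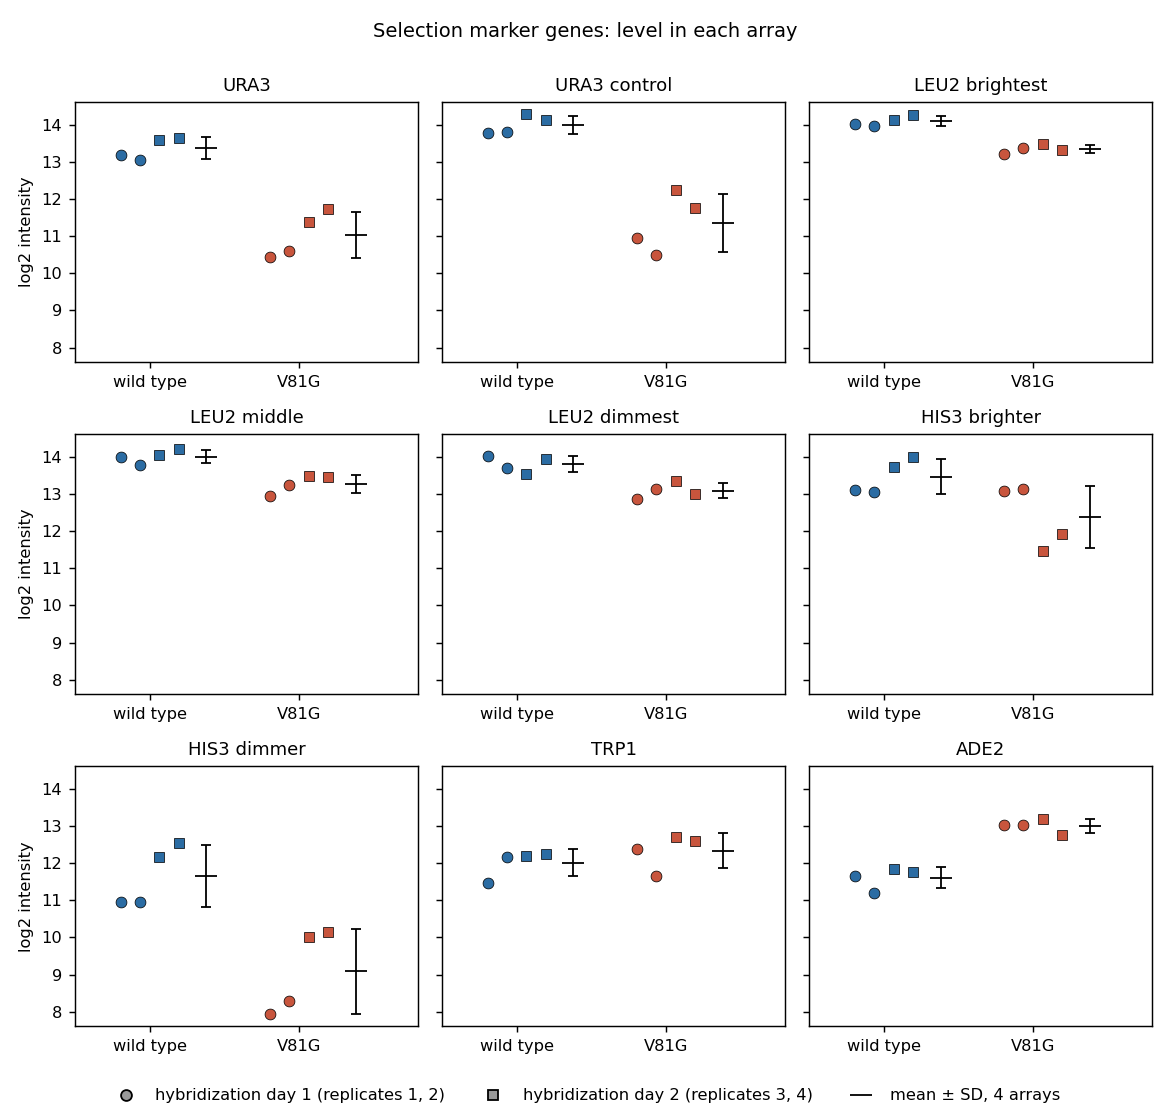
Level (log2 intensity) of the 9 marker probe sets in each array, wild type in blue and V81G in red, with circles for hybridization day 1, squares for day 2 and the mean ± SD of 4 arrays beside each group. The groups are apart in 7 panels, while they overlap for TRP1 and for the brighter HIS3 probe set, whose V81G arrays split by day.

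URA3 (YEL021W, chromosome V) encodes orotidine phosphate decarboxylase, the last step of UMP synthesis, and can also be selected against with fluoroorotic acid. Its standard probe set read 13.17, 13.05, 13.59 and 13.63 in wild type 1 to 4 and 10.43, 10.60, 11.38 and 11.72 in V81G 1 to 4. The lowest array labelled wild type stood 1.33 above the highest one labelled V81G, and URA3 fell by 2.33 ± 0.29, or 5.03-fold (adjusted p = 5.9e-04).

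The manufacturer's control probe set for URA3 showed the same order of groups. It read 13.78, 13.81, 14.29 and 14.11 in the arrays labelled wild type and 10.96, 10.49, 12.23 and 11.75 in those labelled V81G, a gap of 1.55 between the groups. The signal of the URA3 control probe set fell by 2.64 ± 0.34, or 6.23-fold (adjusted p = 7.0e-04), which ranked 8 among all falls, with the standard probe set at rank 12. A difference beyond 2 in either direction was found for 0.528% of the probe sets in the fit. The differences of the URA3 probe sets were 0.31 apart (exact permutation test, two-sided, p = 0.314 and 0.786 after adjustment over the 5 pairs of probe sets of one gene). The smallest possible p is 0.0286, so a single pair could not pass after that adjustment, and the test does not show that probe sets respond alike.

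LEU2 (YCL018W, chromosome III) encodes beta-isopropylmalate dehydrogenase of leucine synthesis. Its brightest probe set read 14.01, 13.96, 14.13 and 14.27 in wild type 1 to 4 and 13.20, 13.36, 13.47 and 13.33 in V81G 1 to 4. All arrays labelled V81G lay below all those labelled wild type, by at least 0.48, and the arrays of each group were close together. LEU2 fell by 0.75 ± 0.12 in this probe set, or 1.68-fold (adjusted p = 0.0030).

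The other LEU2 probe sets gave nearly the same size. The middle one fell by 0.73 ± 0.16 (adjusted p = 0.010) and the dimmest, whose identifier carries the suffix for probes that can match more than 1 transcript, fell by 0.72 ± 0.16 (adjusted p = 0.012). The dimmest differed by -0.58 on day 2 alone and did not pass there (adjusted p = 0.103). Differences between the 3 were at most 0.03 in size, with an exact permutation p of 0.8286 or 0.886.

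HIS3 (YOR202W, chromosome XV) encodes imidazoleglycerol-phosphate dehydratase of histidine synthesis and is the gene that the annotation gives for a pair of probe sets that disagreed. The sources used here do not say which part of the gene each one reads, and whether the dimmer one reads the HIS3 transcript or another transcript that overlaps it could not be checked. The dimmer one read 10.94, 10.96, 12.17 and 12.54 in wild type 1 to 4 and 7.93, 8.28, 10.00 and 10.15 in V81G 1 to 4. The groups were apart by 0.79, and in both of them replicates 3 and 4 stood above replicates 1 and 2. The signal of the dimmer HIS3 probe set fell by 2.56 ± 0.56, or 5.92-fold (adjusted p = 0.012), rank 10 among all falls. V81G 1 and 2 lay under 9.03, the 25th percentile of mean levels over all probe sets, so that background can shrink the difference there.

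The brighter HIS3 probe set read 13.10, 13.04, 13.72 and 14.00 in wild type 1 to 4 and 13.07, 13.12, 11.46 and 11.91 in V81G 1 to 4. V81G 1 and 2 lay among the arrays labelled wild type, whereas V81G 3 and 4 lay below every other array. Over all 8 arrays its difference of -1.08 ± 0.39 missed the threshold (adjusted p = 0.091), while it was 0.02 within day 1 and -2.17 within day 2.

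Both run days held 2 arrays of each group, replicates 1 and 2 on day 1 and 3 and 4 on day 2, per the run sheets. The brighter HIS3 probe set was the one of the 9 that passed a test of whether the difference between groups changed with the day, by -2.20 ± 0.26 from day 1 to day 2 (limma interaction, adjusted p = 0.0086), a call made for 1.26% of all probe sets. From day 1 to day 2 it changed by -1.41 within the group labelled V81G and by 0.79 within that labelled wild type. The dimmer HIS3 probe set instead moved up by 1.97 and 1.41 in the same groups. The gap between the brighter and the dimmer probe set ranged from 1.46 to 5.14 in the arrays labelled V81G and from 1.46 to 2.16 in those labelled wild type. Averaged over days, the test of unequal response of the HIS3 pair gave a difference of 1.49 (exact permutation p = 0.314), made up of 2.87 on day 1 and 0.11 on day 2. On day 1 fluidics station and group cannot be told apart, since both V81G arrays ran on station 2 and both wild-type arrays on station 1. With the station as a block, an alternative added after the data were seen, the brighter probe set differed by -1.35 and passed (adjusted p = 0.0039).

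**Figure D2:**
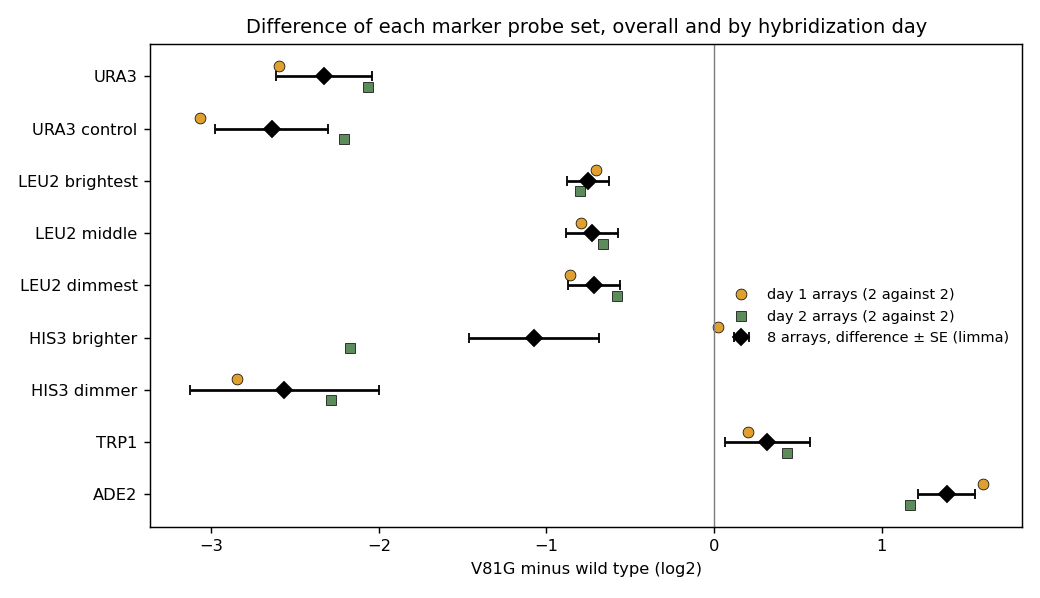
Difference V81G minus wild type (log2) of each marker probe set over all 8 arrays with its SE (diamonds), within day 1 (circles) and within day 2 (squares). The 2 days stand close together for LEU2 and far apart only for the brighter HIS3 probe set, at 0.02 and -2.17.

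Neither URA3 probe set passed the test of whether the difference between groups changed with the day. The standard URA3 probe set differed by -2.60 on day 1 and by -2.06 on day 2, an interaction of 0.53 ± 0.23 (adjusted p = 0.332). The interaction was 0.56 ± 0.26 for the dimmer HIS3 probe set (adjusted p = 0.355) and -0.43 ± 0.29 for ADE2 (adjusted p = 0.517). The URA3 control probe set differed by -3.07 on day 1 and -2.21 on day 2, an interaction of 0.86 ± 0.30 (adjusted p = 0.230). In both probe sets of URA3 the arrays labelled V81G were higher on day 2 than on day 1, by 1.03 and 1.26, and those labelled wild type by 0.50 and 0.40.

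TRP1 (YDR007W, chromosome IV) encodes phosphoribosylanthranilate isomerase of tryptophan synthesis. It read 11.47, 12.16, 12.18 and 12.25 in wild type 1 to 4 and 12.38, 11.66, 12.71 and 12.58 in V81G 1 to 4. The groups overlapped, with wild type 1 and V81G 2 the lowest arrays. The difference of TRP1, 0.32 ± 0.25, missed the threshold (adjusted p = 0.466). Without wild type 1 its difference was 0.14, and without V81G 2 it was 0.54, neither of which passed (adjusted p = 0.788 and 0.123).

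ADE2 (YOR128C, chromosome XV) encodes phosphoribosylaminoimidazole carboxylase of purine synthesis, the enzyme whose loss turns colonies red. It read 11.66, 11.19, 11.83 and 11.76 in wild type 1 to 4 and 13.03, 13.04, 13.18 and 12.75 in V81G 1 to 4. Every array labelled V81G lay above every array labelled wild type, by at least 0.92. ADE2 rose by 1.39 ± 0.17, or 2.62-fold (adjusted p = 5.4e-04), which ranked 114 among all rises. The difference was 1.60 on day 1 and 1.17 on day 2.

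The other genes listed for the same 5 pathways fell more often than they rose. Besides enzymes of synthesis, the lists held the regulator genes PPR1, LEU3, BAS1 and PHO2. They also held the transport or salvage genes FUR1, FUR4, OAC1 and APT1. Of 49 measured genes 2 rose, 19 fell and 28 did not pass, which is 42.9% called against 21.6% of the 5656 named genes (12.3% as falls and 9.23% as rises). Their median difference was -0.50, against -0.08 over all named genes. The number of falls was 12 without wild type 1 and 12 without wild type 4.

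In the uracil list 1 of 11 genes rose and 1 fell, which is 18.2% called and no more than the 21.6% of all named genes. The median difference was 0.17 over all arrays, while it was -0.23 within day 1 and 0.29 within day 2. URA10, the minor orotate phosphoribosyltransferase gene, rose by 0.74 ± 0.16, and URA8, a CTP synthase gene, fell by 1.01 ± 0.18. URA10 was dim, with a mean of 9.01 in the arrays labelled wild type and 3 arrays under 9.03. PPR1, the activator of URA3, differed by 0.51 ± 0.18 without passing (adjusted p = 0.084), and passed once replicate numbers were blocked (adjusted p = 0.049). The lowest difference in the list was that of URA8, smaller in size than that of either URA3 probe set. Without V81G 1 the number of rises in it was 2.

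In the leucine and branched-chain list 5 of 12 genes fell and 0 rose (41.7% called), around a median of -0.51. ILV3, dihydroxyacid dehydratase, fell by 1.13 ± 0.34 and LEU1, the enzyme before Leu2, fell by 1.09 ± 0.19. The regulator gene LEU3 differed by 0.21 ± 0.18 (adjusted p = 0.520). The number of falls was 3 without V81G 1, V81G 2, wild type 1 or wild type 3, and 2 without wild type 4.

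In the adenine list 4 of 12 genes fell and 1 rose (41.7% called), with a median of -0.46, so that most differences had the opposite sign to that of ADE2. ADE12, adenylosuccinate synthase, fell by 1.23 ± 0.15 and ADE17, of the last steps of IMP synthesis, fell by 1.23 ± 0.30. ADE8, the glycinamide ribotide transformylase gene, rose by 0.89 ± 0.17 (adjusted p = 0.0059). BAS1, the activator gene, differed by -0.21 ± 0.20 (adjusted p = 0.569). The number of falls was 2 without V81G 1, V81G 2 or wild type 3, and 1 without wild type 1 or wild type 4.

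Of the 6 other histidine genes 2 fell and none rose, which is 33.3% called against 21.6% of all named genes. HIS4, a multifunctional enzyme of the pathway, fell by 1.70 ± 0.19 (adjusted p = 4.1e-04), and HIS1, the first enzyme, fell by 1.55 ± 0.37 (adjusted p = 0.019). HIS4 differed by -1.43 on day 1 and -1.98 on day 2, and HIS1 by -2.20 and -0.90. The list's median was -0.55 over all arrays, -0.22 within day 1 and -0.85 within day 2. The number of falls was 1 without wild type 1 or wild type 4.

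Tryptophan and chorismate genes fell in 7 of 8 cases, which is 87.5% called. The list's median was -0.77 and also -0.77 on each day, while TRP1 did not pass and had a positive difference. ARO2, chorismate synthase, fell by 0.93 ± 0.17 (adjusted p = 0.0055) and TRP2, of anthranilate synthase, fell by 0.89 ± 0.21 (adjusted p = 0.016). With day 1 arrays alone 4 genes of the list fell. The member that did not pass was ARO4, at -0.19 ± 0.24, named after its value was seen. Whether TRP1 differs from its list was not tested.

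**Figure D3:**
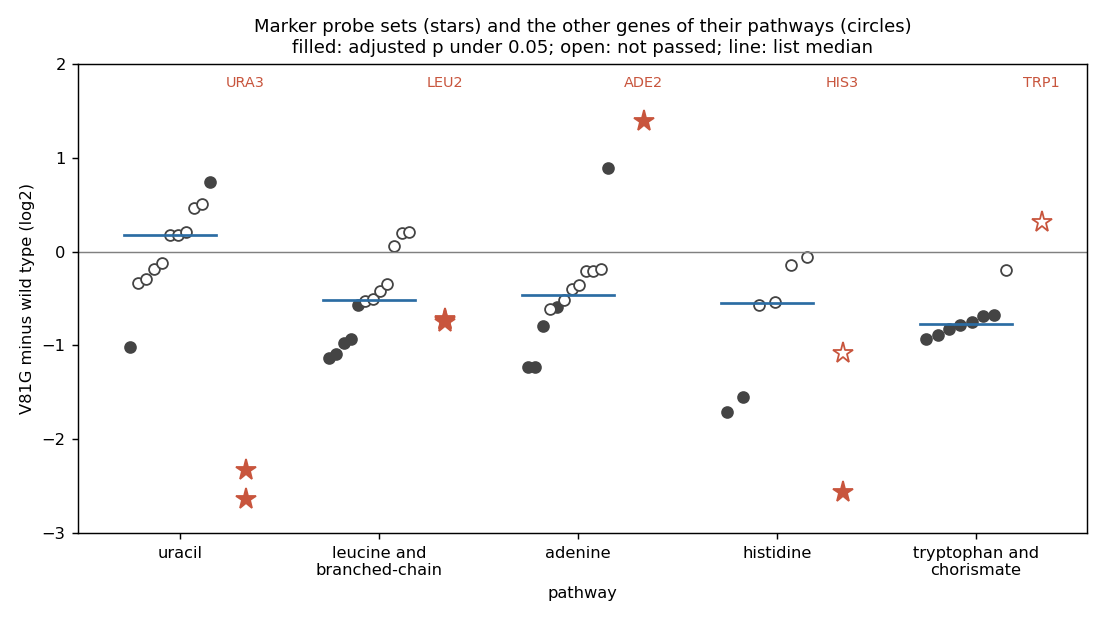
Difference V81G minus wild type (log2) of the marker probe sets (stars) and the other measured genes listed for their pathways (circles), filled where adjusted p was under 0.05, with the median of each list as a line. URA3 lies below all other uracil genes, ADE2 above all other adenine genes, and TRP1 above all 8 other genes of its list.

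Of the 3 further selectable genes 1 fell, a share of 33.3%, where 21.6% of all named genes were called. MET17, of methionine synthesis, fell by 2.11 ± 0.33 (adjusted p = 0.0023). LYS2, of lysine synthesis, differed by -0.40 ± 0.16 (adjusted p = 0.132). CAN1, the arginine permease gene that can be selected against with canavanine, differed by 0.80 ± 0.30 (adjusted p = 0.099), with overlapping groups. It passed as a rise without V81G 1, but not without any other single array. With the replicate block it did not pass (adjusted p = 0.056), and with the day as a block it did (adjusted p = 0.021).

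No measured gene next to a marker on the chromosomes fell as far as URA3 or the dimmer HIS3 probe set. Of the 20 nearest measured genes, 2 on each side of each marker, 3 rose, 2 fell and 15 did not pass, with differences from -0.85 to 0.65 and a median of 0.03. Among all named genes 21.6% passed, so this share is near the background. Beside URA3, the mitochondrial import gene TIM9 differed by -0.85 ± 0.31 (adjusted p = 0.096, or 0.037 once replicate numbers were blocked), and GEA2, a vesicle transport gene on the other side, by -0.36 ± 0.18. Beside HIS3, MRM1 and the RNA helicase gene DED1 differed by -0.29 ± 0.20 and -0.30 ± 0.21, neither passing, while further out BFR1 fell by 0.76 ± 0.17 and GEP3 rose by 0.49 ± 0.13.

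Around the remaining markers 3 neighbours passed. Beside LEU2, the cysteine desulfurase gene NFS1 fell by 0.72 ± 0.11 (adjusted p = 0.0018), close in size to LEU2, and the next gene, DCC1, rose by 0.47 ± 0.12. On the other side of LEU2 the tRNA gene YNCC0001C and KCC4 differed by 0.20 ± 0.19 and 0.15 ± 0.24. Beside ADE2, RGA1, a GTPase regulator of cell polarity, rose by 0.65 ± 0.18 (adjusted p = 0.035), and AFI1 differed by 0.11 ± 0.18. The neighbours of TRP1, SOK1 and GAL3, differed by -0.40 ± 0.28 and -0.11 ± 0.28. The outermost genes IAH1 (-0.02), ORT1 (0.08), MAF1 (0.37), SNQ2 (0.17), YEL023C (0.34) and RPR1 (-0.13) did not pass either.

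**Figure D4:**
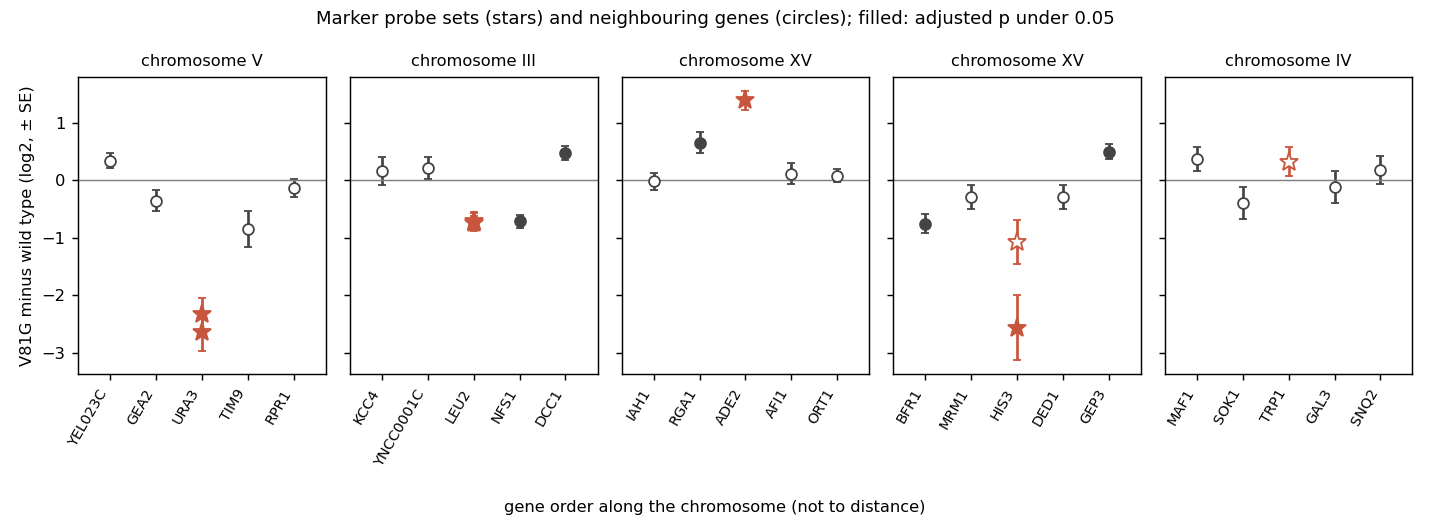
Difference V81G minus wild type (log2, ± SE) of each marker probe set (stars) and of the 2 nearest measured genes on each side (circles), in gene order and not to distance, filled where adjusted p was under 0.05. The neighbours lie between -0.85 and 0.65.

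Across the 8 arrays the marker probe sets that fell had similar patterns, as a description over points that share group and run day. Pearson's r was 0.98 between the URA3 probe sets, 0.96 between URA3 and the brightest LEU2 probe set and 0.96 between URA3 and the dimmer HIS3 probe set. It was 0.79 between the dimmest LEU2 and the dimmer HIS3 probe set, the lowest value among the probe sets that fell. Between the HIS3 probe sets it was 0.40, and between URA3 and ADE2 it was -0.89. The number of named genes at r over 0.9 was 339 for URA3, 353 for the brightest LEU2 probe set, 287 for the dimmer HIS3 probe set, 149 for the brighter one, 229 for ADE2 and 8 for TRP1.

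The genes most alike to the standard URA3 probe set over the 8 arrays were MIR1 (r = 0.995), MIC12 (0.994) and GGC1 (0.992), and those most alike to the URA3 control probe set were GGC1 (0.988), FTH1 (0.986) and RPS22B (0.985). For LEU2 they were NIF3 (0.996), QCR6 (0.990) and ATP17 (0.987) in the brightest, SSS1 (0.992), GND1 (0.988) and ACS2 (0.987) in the middle and CYS3 (0.977), ELF1 (0.973) and RFA3 (0.972) in the dimmest probe set. SEC18 (0.985), RIB5 (0.980) and AMS1 (0.980) came closest to the brighter HIS3 probe set, and TOS7 (0.993), LYS21 (0.992) and AMN1 (0.990) to the dimmer. PFA5 (0.984), THI21 (0.982) and PRP6 (0.981) came closest to ADE2. For TRP1 the highest values were lower, at 0.955 for the tRNA probe set of YNCJ0023C, 0.951 for LAG1 and 0.949 for SAS3.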

How the data were processed

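Total RNA was labelled as biotinylated cRNA and hybridised to 1-colour Affymetrix yeast arrays. As deposited, each value was the linear intensity of a probe set, from 89.9 to 44207, for which the submitters' processing notes name RMA without a version. Any scaling or centring after RMA is unknown; array medians were 1098 to 1189. Precision is limited by the number of arrays, 4 per group. Log2 was taken before testing.

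Of 60 control probe sets only that of URA3 entered the fit. Gene symbols were those of the platform annotation after an update by gene ID with RefSeq's R64 table, which matched all 6504 probe sets of a single gene; 328 had several symbols and 2443 were not listed. The URA3 control was recognised by its identifier. The brightest probe set stood for a list gene or neighbour; of the 50 list genes of the 5 pathways, ADE5,7 had none.

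The comparison of groups used limma 3.58.1 (R 4.3.3; lmFit and eBayes, two-sided, with no term besides group), checked on simulated data, where interactions with day were recovered far less often than differences between groups of the same size, so that an interaction that did not pass does not show equal differences on both days. The simulated spread was that of the fit with group alone, so it held shifts between days. Recovery of interactions may be understated there. Permutation tests used scipy 1.17.1. P-values measure the spread between these arrays.

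Members and lists were chosen with earlier results of these data known. Named were all member probe sets, up to 2 rises and 2 falls per list, PPR1, BAS1, CAN1, LYS2, MET17, the neighbours, the 3 most alike genes per probe set, HYP2, ANB1 and mating-type markers. Other gene names (such as LEU3, ARO4, ADE4 and HIS6) were added later. Alternatives varied filters, scaling, offset, blocks, days, eBayes settings and left-out arrays. Deviations from group means of same-numbered arrays, which share a run day, correlated at 0.228 to 0.437. Other-numbered arrays of the same day correlated as well, at 0.222 to 0.343. Replicate numbers were treated as pairs only in the alternative with the replicate block, and the main fit was unpaired. No pair of arrays held identical values.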

Additional observations from a re-analysis of the deposited data

Results flagged for a closer look

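The brighter HIS3 probe set stood out because its difference between the groups was not the same on the 2 run days, by -2.20 on the log2 scale in a test of that difference. TRP1 stood out in the arrays labelled wild type because wild type 1, at 11.47, lay far below the other 3, at 12.16 to 12.25. Its gap was 0.889 of the group's range, above the critical value of Dixon's test for 4 samples. Of 18 groups of 4 examined in this way 1 was marked, and chance marks about 1 in 20.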

How the results depend on the processing

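Of 197 recomputed differences of the marker probe sets over 22 alternatives, 193 kept their direction and their side of the threshold. The exceptions were the dimmest LEU2 probe set with day 2 arrays only (-0.58, adjusted p = 0.103) and the brighter HIS3 probe set, which was 0.022 with day 1 arrays only (adjusted p = 0.949), -2.17 with day 2 arrays only (adjusted p = 0.0044) and -1.35 with the fluidics station as a block; the cause was not tested. With the replicate block, in which replicate number and run day cannot be told apart, adjusted p was 4.3e-04 for URA3, 0.0068 for the brightest LEU2 probe set, 3.9e-04 for the dimmer HIS3 one and 0.0019 for ADE2, and no call of the 9 changed. Leaving out 1 array at a time gave -2.56 to -2.13 for URA3, -2.92 to -2.18 for the dimmer HIS3 probe set and 1.25 to 1.47 for ADE2. Over all probe sets 799 fell, against 480 with day 1 arrays only, 1211 with the day as a block and 501 to 769 without 1 array. In the 5 pathway lists 1 gene rose with day 1 arrays only and 4 with the day as a block, and 12 to 19 fell without 1 array. The interaction with day was called for 117 probe sets, and for 216 with an intensity trend. Differences of probe sets under 9.03 are limited by background, which touches the dimmer HIS3 probe set in V81G 1 and 2. Among the genes of the pathway lists it touches URA10 in 3 arrays, and ADE4, PHO2 and HIS6 in all 8.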
